A study of Mus musculus with 10 samples.

Results

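The MHC class II presentation genes examined here are 10 genes of the pathway that displays peptides on MHC class II: the chain genes H2-Aa, H2-Ab1 and H2-Eb1, the invariant chain gene Cd74, the peptide exchange genes H2-DMa, H2-DMb1 and H2-DMb2, the protease gene Ctss, and the regulators Ciita and Rfx5. They were taken by symbol from a table of 12535 genes, all 10 were found, and all 10 passed the filter on low values. Expression had been measured by RNA-seq in macrophages sorted from mouse pancreas or pancreatic tumour as CD45+CD11b+F4/80+ cells. The tumours grew in the pancreas for 14 days from MT4, a single organoid line of KPC pancreatic adenocarcinoma, in Ahr fl/fl Lys M cKO mice (cKO-labelled TAM, n = 3) and in Ahr fl/fl mice (control TAM, n = 3), where TAM stands for tumour-associated macrophages. Resident macrophages came from the normal pancreas of healthy C57/BL6 wild-type mice (n = 4). The cKO label names a loss of Ahr, the aryl hydrocarbon receptor, by a Cre recombinase driven from the Lyz2 locus, which is active in macrophages, monocytes and neutrophils. Resident mice differ from control TAM mice in genotype label as well as in tumour, and these 2 differences cannot be told apart.

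MHC class II molecules are pairs of an alpha and a beta chain that carry peptides from endocytosed proteins to the cell surface for CD4+ T cells. Cd74 binds the new chains, fills the groove and steers them to endosomes. Proteases, with cathepsin S (Ctss) acting late, trim Cd74 down to a short fragment, which H2-DM then exchanges for peptide. Transcription of the chain genes, Cd74 and H2-DM depends on the coactivator Ciita, which docks on promoter proteins that include the RFX complex (Rfx5, Rfxap, Rfxank) and NF-Y. Ciita itself is induced by interferon-gamma, and macrophages, dendritic cells and B cells all use the pathway.

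From 10126010 to 25620498 reads per library could be recovered from the deposited values, and between 107 and 220 reads fell on Rfx5, the lowest of the 10, against 243912 to 834119 on Cd74, the highest. Summed macrophage markers (12 of 12 in the table) stood at 25394 to 25788 FPKM in cKO-labelled TAM, 32319 to 32506 in control TAM and 47893 to 49072 in resident libraries, where FPKM corrects a fragment count for gene length and library size. Much of that sum is Lyz2, and the tumour groups change places without it: the other 11 markers, a choice made after the values were seen, summed to 13890 to 14265 FPKM in cKO-labelled TAM, 12389 to 12696 in control TAM and 20109 to 21389 in resident libraries. Ahr read 10.2, 11.2 and 9.65 FPKM in cKO-labelled TAM, against 7.11, 6.91 and 7.51 in control TAM, so its level was higher, not lower, under the cKO label (log2 change 0.47 ± 0.07, limma adjusted p = 0.000108). A level over the whole gene also counts exons outside a deleted part and does not check the deletion. The libraries are therefore called cKO-labelled throughout, and directions drawn from that label carry this limit.

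The promoters of the chain and H2-DM genes are shown because all of them are read by the same protein assembly. RefSeq windows from 250 bases before to 50 after the gene start (GRCm38.p6) were at hand for 7 of the 10 genes; H2-Ab1, Cd74 and Ciita are named only. Each window was searched on both strands for the letters CTNNNAAC followed after 20 to 40 bases by ATTGG, a loose form of the X box bound by RFX and the Y box bound by NF-Y. This form was chosen after the promoters had been read. It lay in a window of 4 of the 7 genes, H2-Aa, H2-Eb1, H2-DMb1 and H2-DMb2, and in 0.901% of all 32851 promoter windows. H2-DMa has 2 windows, and neither held it. The 2 boxes were 27 or 28 bases apart in these 4 genes. Capitals mark the boxes on the gene's own strand:
H2-Aa: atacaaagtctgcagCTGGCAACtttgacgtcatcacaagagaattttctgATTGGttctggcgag
H2-Eb1: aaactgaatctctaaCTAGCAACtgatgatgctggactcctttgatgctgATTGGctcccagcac
H2-DMb2: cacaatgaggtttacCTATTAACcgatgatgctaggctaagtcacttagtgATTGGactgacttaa
These stretches lie at chr17:34287857-34287922 (minus strand, outside any annotated gene), chr17:34305758-34305822 (plus strand, inside an intron of Gm20513) and chr17:34145108-34145173 (plus strand, inside an intron of a longer H2-DMb2 transcript), with features from GENCODE M21. The stretch of H2-DMb1 at chr17:34153079-34153144 (plus strand) lies inside an annotated exon of H2-DMb1, in an untranslated region. It has the same letter as that of H2-DMb2 at 57 of 66 positions. The stricter X box letters CCTNGNAAC were fixed with the design and are present in 4.85% of all windows. Among the members they lay only in those of H2-DMb1 and Rfx5, and not in those of H2-Aa, H2-Eb1 or H2-DMb2. The count of 4 of 7 thus rests on the form chosen afterwards. ATTGG alone was in 37.4% of all windows.

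The windows of Ctss, H2-DMa and Rfx5 held no such pair of boxes. In that of Ctss GAAA, any 2 bases and GAAA again, an interferon-response-like motif also added after the promoters had been read, occurred once, as in 3.44% of all windows. The stretch is printed because Ctss went its own way in the values below, with the motif in capitals:
Ctss: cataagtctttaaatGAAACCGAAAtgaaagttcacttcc
It lies at chr3:95526750-95526789 on the plus strand and ends 4 bases inside the first exon. A match describes letters only, and no factor's binding was measured.

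Among the class II chain genes, all 3 were higher in cKO-labelled TAM than in control TAM and lowest in control TAM. H2-Eb1, a beta chain on mouse chromosome 17, read 5200, 5207 and 5115 FPKM in cKO-labelled TAM, 3449, 3611 and 3491 in control TAM, and 6145, 5981, 5840 and 5781 in resident libraries. The 3 groups did not overlap, and cKO-labelled TAM lay between the other two. H2-Eb1 was 1.47 times as high in cKO-labelled as in control TAM (log2 change 0.56 ± 0.03 SE on the log2(FPKM + 1) scale used for every change, limma adjusted p = 6.55e-10). Against resident macrophages it was lower in both tumour groups, by a log2 change of -0.20 ± 0.03 in cKO-labelled TAM (limma adjusted p = 5.35e-06) and -0.76 ± 0.03 in control TAM (2.82e-13).

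H2-Aa, the alpha chain that pairs with H2-Ab1, had the same order of groups. It stood at 6981, 7169 and 6971 FPKM in cKO-labelled TAM, 5082, 5237 and 5075 in control TAM, and 8013, 7950, 7852 and 7820 in resident libraries. No 2 groups overlapped. The log2 change was 0.46 ± 0.02 between cKO-labelled and control TAM (limma adjusted p = 1.50e-09) and -0.62 ± 0.02 between control TAM and resident macrophages (5.88e-13). Between cKO-labelled TAM and resident macrophages it was -0.17 ± 0.02 (limma adjusted p = 7.43e-06), a call lost when libraries were rescaled to a common FPKM total (log2 change -0.03, limma adjusted p = 0.123) and turned round by quantile normalization (0.22). Over all alternatives its adjusted p ran over 1.39e-12 to 0.123.

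H2-Ab1, the beta partner of H2-Aa and the most abundant chain, differed from both in its standing against the normal pancreas. Its levels were 15537, 15921 and 15287 FPKM in cKO-labelled TAM, 10711, 11338 and 10978 in control TAM, and 15474, 14879, 14566 and 14737 in resident libraries. Here cKO-labelled TAM and resident libraries overlapped, and control TAM lay below both. The change of H2-Ab1 in cKO-labelled against control TAM was 0.50 ± 0.03 (limma adjusted p = 4.30e-09), and in control TAM against resident macrophages -0.44 ± 0.03 (6.17e-10, but 0.64 after quantile normalization). Against resident macrophages cKO-labelled TAM missed the threshold at 0.06 ± 0.03 (limma adjusted p = 0.0501). That value passed without cKO-labelled TAM replicate 3 (0.0466), control TAM replicate 2 (0.0478) or resident replicate 1 (0.00550), and over all alternatives ran over 1.54e-15 to 0.437. Scaling mattered too: H2-Ab1 was called higher than in resident macrophages when rescaled to a common FPKM total (log2 change 0.20). The same held with a total outside the acinar enzymes (0.097) and with quantile normalization (0.87), but not with median-of-ratios scaling (0.028).

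Cd74, the invariant chain, followed H2-Aa and H2-Eb1. It read 23586, 23905 and 23090 FPKM in cKO-labelled TAM, 16661, 17083 and 16714 in control TAM, and 27108, 25623, 25618 and 25521 in resident libraries. The groups did not overlap, and resident replicate 1 stood above the other resident libraries. Cd74 was 1.40 times as high in cKO-labelled as in control TAM (log2 change 0.48 ± 0.03, limma adjusted p = 3.32e-09). In control TAM it fell by 35.2% relative to resident macrophages (log2 change -0.63 ± 0.03, limma adjusted p = 2.91e-12, but 0.12 after quantile normalization), while in cKO-labelled TAM it fell by 9.40% (log2 change -0.14 ± 0.03, limma adjusted p = 0.000148). This last difference of Cd74 was not seen after rescaling to a common FPKM total (log2 change -0.01, limma adjusted p = 0.720) and was 0.41 after quantile normalization, with adjusted p over all alternatives of 4.68e-11 to 0.720.

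Together the 3 chain genes and Cd74 took 10.4% to 10.6% of all FPKM in cKO-labelled TAM, 7.82% to 8.08% in control TAM and 10.1% to 10.4% in resident libraries. By mean level among all genes, Cd74 ranked at place 1 in cKO-labelled TAM, 2 in control TAM and 3 in resident macrophages, and H2-Ab1 ranked next to it, at place 2 in cKO-labelled TAM, 3 in control TAM and 4 in resident macrophages.

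**Figure D1:**
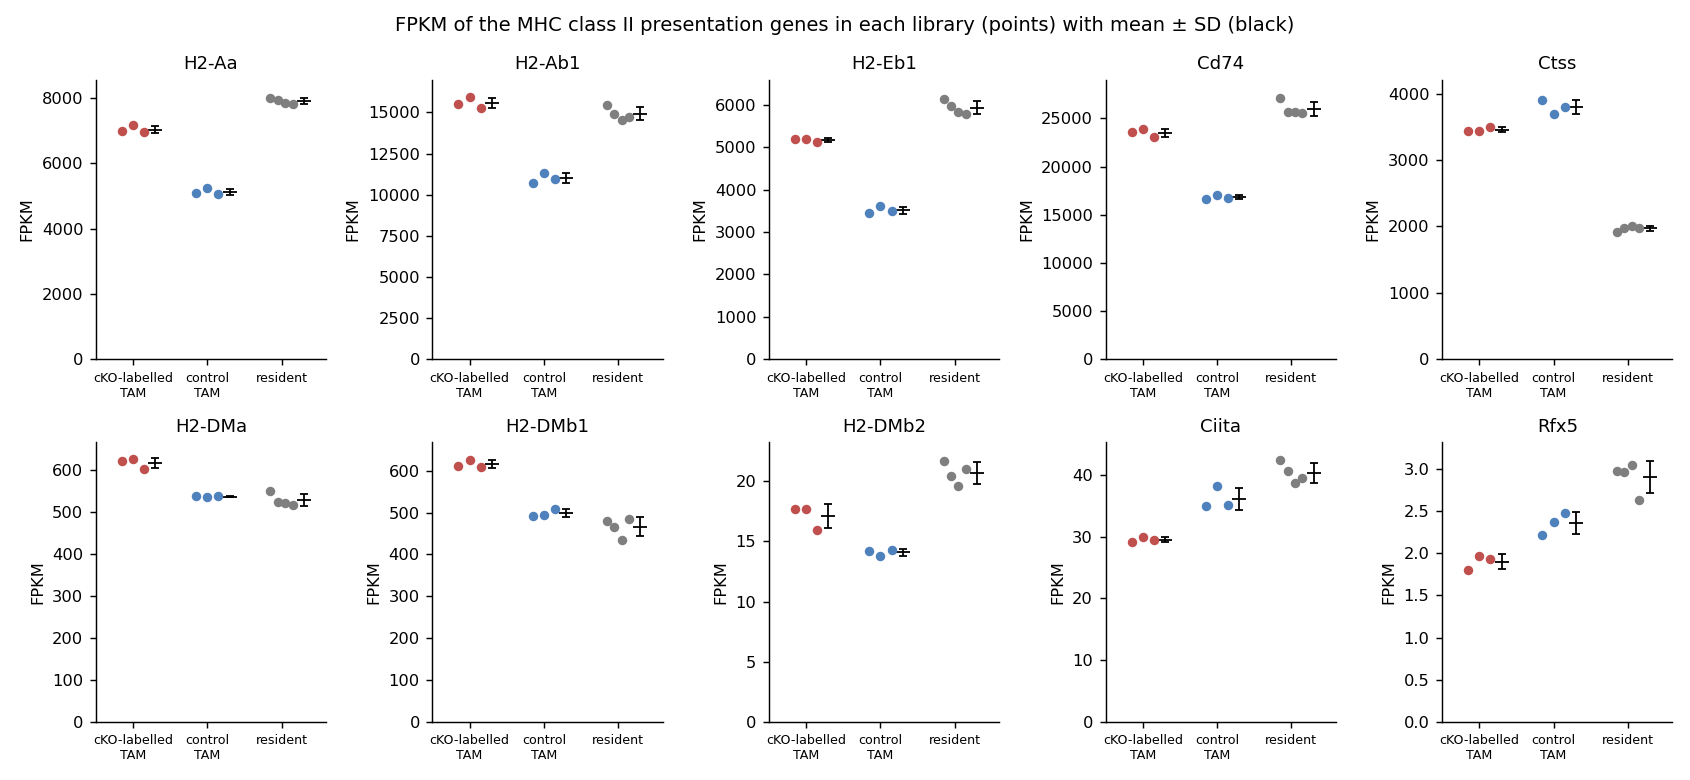
FPKM of each of the 10 genes in every library, 1 panel per gene on a linear axis from 0, with 3 cKO-labelled TAM, 3 control TAM and 4 resident libraries as points and the mean ± SD of each group in black. In the deposited values the chain genes and Cd74 are lowest in control TAM, Ctss is highest there, and Ciita and Rfx5 step up towards the resident libraries.

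The H2-DM genes encode the exchange factor that frees the chains of the Cd74 fragment, as a dimer of H2-DMa with an H2-DMb chain. All 3 were higher in cKO-labelled than in control TAM, by log2 changes of 0.20 to 0.30, beside 0.46 to 0.56 for the chains. H2-DMa read 622, 626 and 604 FPKM in cKO-labelled TAM, 538, 536 and 539 in control TAM, and 550, 525, 523 and 517 in resident libraries. Control TAM and resident libraries overlapped, and cKO-labelled TAM lay above both. H2-DMa changed by 0.20 ± 0.03 in cKO-labelled against control TAM (limma adjusted p = 7.89e-05) and by 0.22 ± 0.03 against resident macrophages (1.97e-06). Control TAM against resident macrophages gave 0.02 ± 0.03 (limma adjusted p = 0.437), which became a call, 0.24, when rescaled to a common FPKM total (1.58e-07, and up to 0.908 over all alternatives).

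H2-DMb1, the main beta chain of H2-DM here, stood at 609.99, 626 and 609.77 FPKM in cKO-labelled TAM, 492, 495 and 509 in control TAM, and 479.6, 464, 435 and 485 in resident libraries. Its groups did not overlap. The change was 0.30 ± 0.04 in cKO-labelled against control TAM (limma adjusted p = 1.21e-05) and 0.40 ± 0.03 against resident macrophages (2.64e-08). Control TAM exceeded resident macrophages by 0.10 ± 0.03 (limma adjusted p = 0.0168). That last call was lost without control TAM replicate 3 (0.0729), without resident replicate 3 (0.0526), under median-of-ratios scaling (0.0544) and with no variance trend (0.0808), the highest value over all alternatives, the lowest being 9.00e-08.

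H2-DMb2, a neighbouring copy, was the lower of the H2-DMb genes. It stood at 17.7, 17.7 and 16.0 FPKM in cKO-labelled TAM, 14.2, 13.8 and 14.3 in control TAM, and 21.7, 20.4, 19.6 and 21.0 in resident libraries. H2-DMb2 was higher in cKO-labelled than in control TAM by 0.26 ± 0.06 (limma adjusted p = 0.00168) but lower than in resident macrophages by -0.26 ± 0.05 (0.000287), as was control TAM, by -0.52 ± 0.05 (1.57e-07). The groups did not overlap. Of the 50-base words in the longest transcripts, 27.2% of those in H2-DMb1 also occur in H2-DMb2 and 25.2% of those in H2-DMb2 in H2-DMb1, so how reads were shared between the copies is uncertain.

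Cathepsin S went the other way from the genes whose product it processes. Ctss, on chromosome 3, read 3439, 3436 and 3498 FPKM in cKO-labelled TAM, 3909, 3692 and 3801 in control TAM, and 1918, 1976, 2000.1 and 1978 in resident libraries. No 2 groups overlapped. Ctss was 1.93 times as high in control TAM as in resident macrophages (log2 change 0.95 ± 0.03, limma adjusted p = 9.09e-15) and 1.76 times as high in cKO-labelled TAM (0.81 ± 0.03, 7.73e-14). It was lower in cKO-labelled than in control TAM by -0.14 ± 0.03 (limma adjusted p = 0.00114).

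The coactivator Ciita was not highest where its targets were highest among the tumour groups. Ciita, on chromosome 16, stood at 29.2, 30.0 and 29.5 FPKM in cKO-labelled TAM, 35.1, 38.2 and 35.1 in control TAM, and 42.5, 40.7, 38.7 and 39.6 in resident libraries. The groups did not overlap, and cKO-labelled TAM was lowest. In cKO-labelled TAM Ciita fell by 18.1% relative to control TAM (log2 change -0.28 ± 0.05, limma adjusted p = 0.000266) and fell by 26.8% relative to resident macrophages (-0.44 ± 0.04, 1.95e-07). In control TAM against resident macrophages the change was -0.16 ± 0.04 (limma adjusted p = 0.00422), a call lost when libraries were rescaled to a common FPKM total (0.05, limma adjusted p = 0.290) or to one outside the acinar enzymes (-0.05, 0.303). Over all alternatives the adjusted p ran over 0.000328 to 0.303.

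Rfx5, a DNA-binding subunit of the RFX complex, was the lowest of the 10 genes and had the order of Ciita. It read 1.80, 1.97 and 1.93 FPKM in cKO-labelled TAM, 2.22, 2.37 and 2.48 in control TAM, and 2.98, 2.97, 3.05 and 2.63 in resident libraries, without overlap. Rfx5 was lower in cKO-labelled TAM than in resident macrophages by -0.43 ± 0.07 (limma adjusted p = 4.91e-05). At levels this low the added 1 makes log2 changes smaller than the FPKM themselves imply. In mean FPKM the difference of cKO-labelled TAM was -34.6% from resident macrophages and -19.4% from control TAM. The smaller changes of Rfx5 were less secure. In cKO-labelled against control TAM Rfx5 changed by -0.21 ± 0.08 (limma adjusted p = 0.0384), and the call was lost with these 2 groups alone in the fit (0.0501) and without cKO-labelled TAM replicate 1 (0.114), 2 (0.0633) or 3 (0.0740), or control TAM replicate 2 (0.0790) or 3 (0.111), with 0.0105 the lowest over all alternatives. In control TAM against resident macrophages it changed by -0.22 ± 0.07 (limma adjusted p = 0.0114), a call lost without control TAM replicate 1 (0.0504) and when rescaled to a common FPKM total (0.425) or to one outside the acinar enzymes (0.0917), with 0.00259 the lowest over all alternatives.

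Counted by comparison, 10 of the 10 genes differed between cKO-labelled and control TAM at a limma adjusted p under 0.05, where 39.6% of all genes tested did. Of these 7 were higher (20.5% of all genes) and 3 lower (19.1%), and the groups did not overlap for 10 of 10 (51.4% of all genes). The median change of the 10 genes was 0.28 on the log2 scale, against 0.01 over all genes tested. Between control TAM and resident macrophages 9 of 10 differed (77.1% of all genes), 2 higher (39.0%) and 7 lower (38.1%), with no overlap for 9 (73.9%), and their median change was -0.33, against 0.00 over all genes. That share is not far from the background of this comparison. Between cKO-labelled TAM and resident macrophages 9 of 10 differed (77.4%), 3 higher (40.2%) and 6 lower (37.2%), with no overlap for 9 (75.5%), and their median change was -0.15, against 0.02 over all genes. These comparisons share libraries, so their counts are not independent of each other.

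**Figure D2:**
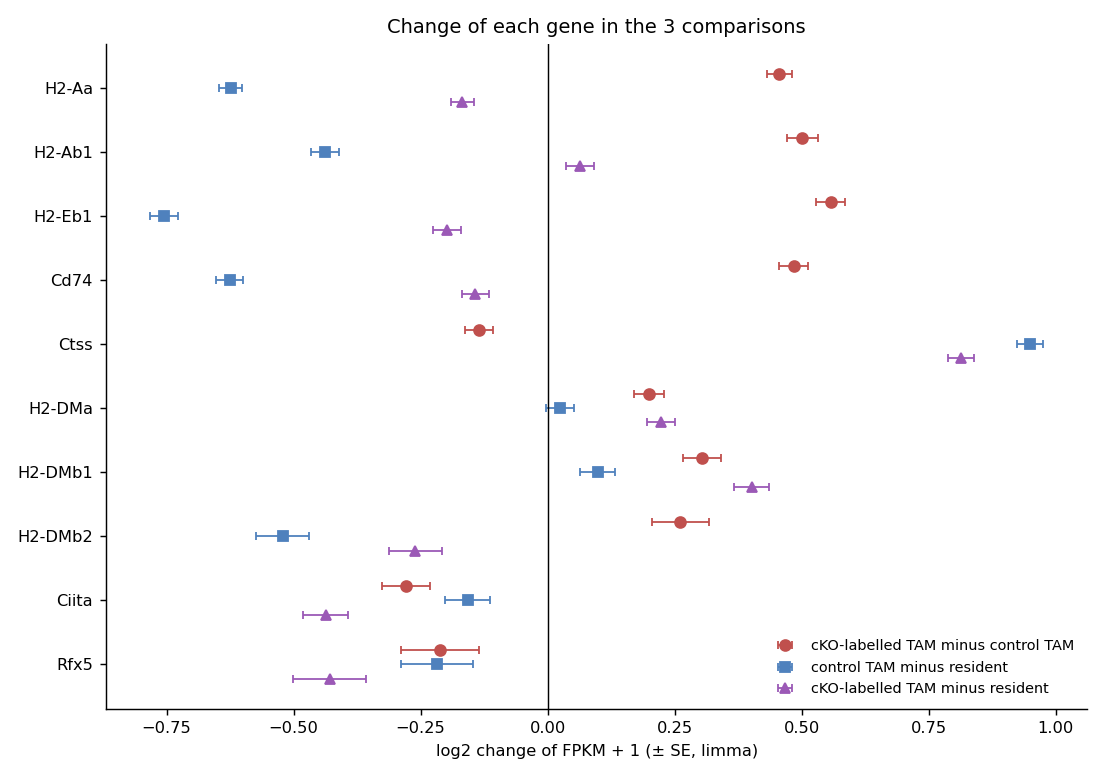
Log2 change of each of the 10 genes in the 3 comparisons, on the log2(FPKM + 1) scale, with bars of 1 standard error. The chains, Cd74 and H2-DM genes lie above 0 in cKO-labelled against control TAM, with Ciita, Ctss and Rfx5 below it.

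Changes in scaling acted on all genes at once. When each library was rescaled to the same FPKM total, the median change over all genes became 0.18 in control TAM against resident macrophages, -0.05 in cKO-labelled against control TAM and 0.14 in cKO-labelled TAM against resident macrophages. Of the genes called between cKO-labelled and control TAM, 32.8% were then higher, against 51.8% as deposited. The corresponding shares were 66.2% against 50.6% for control TAM and resident macrophages, and 61.9% against 52.0% for cKO-labelled TAM and resident macrophages. Relative to the shifted median, Cd74 was higher in cKO-labelled than in control TAM by 0.46 after rescaling, H2-Ab1 by 0.48 and H2-Eb1 by 0.53. Ciita gave -0.30 on the same footing, so the chains and the coactivator had opposite signs in this comparison under that scaling too.

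**Figure D3:**
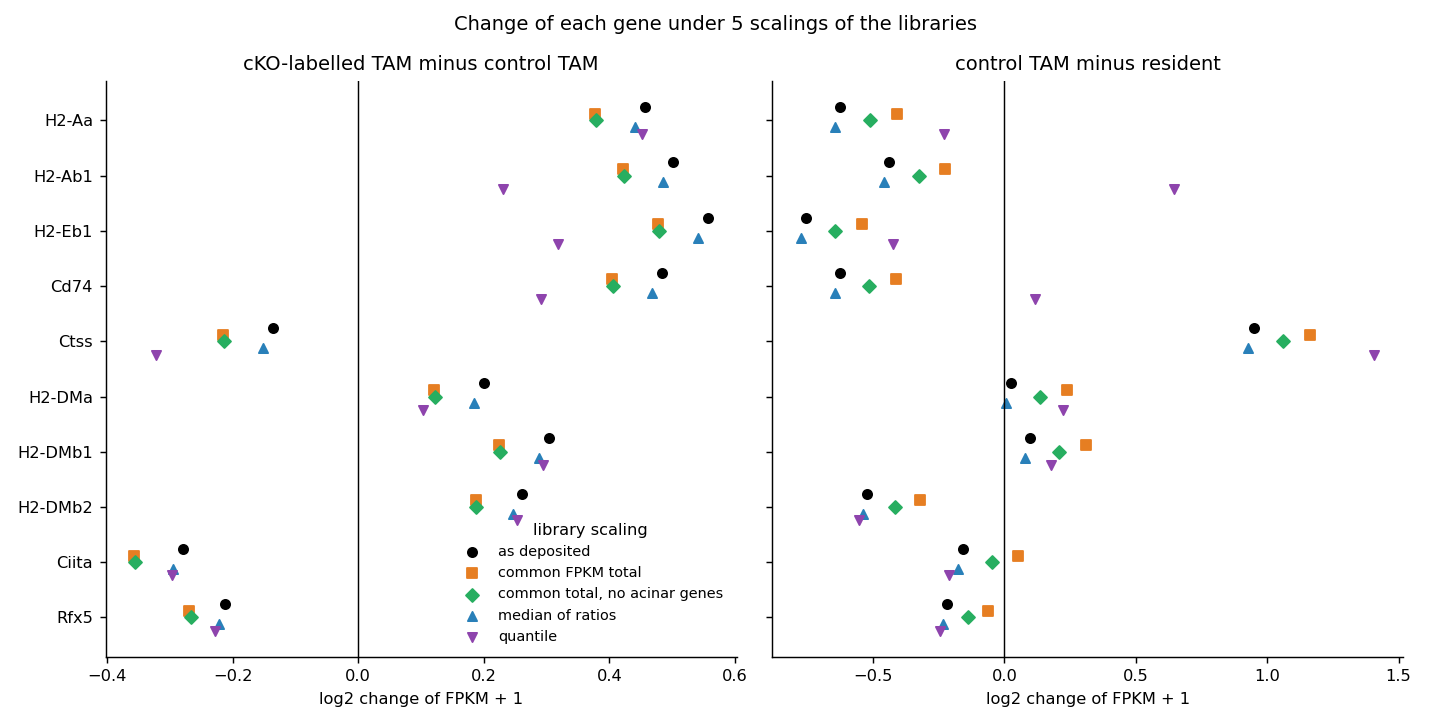
Log2 change of each of the 10 genes under the deposited scaling and 4 other library scalings, for cKO-labelled minus control TAM (left) and control TAM minus resident macrophages (right). On the left each gene keeps its sign under all 5, while on the right H2-Ab1 and Cd74 change sign under quantile normalization and Ciita under the common FPKM total.

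Ratios of the deposited FPKM within a library do not depend on scaling by a single factor per library, and several of them differed between the groups. Quantile normalization is not such a scaling and moves genes unequally. In control TAM against resident macrophages it gave -0.23 for H2-Aa and 0.64 for H2-Ab1, where the deposited values gave -0.62 and -0.44. The ratio of H2-Eb1 to H2-Ab1 was 0.327 to 0.335 in cKO-labelled TAM, 0.318 to 0.322 in control TAM and 0.392 to 0.402 in resident libraries. H2-Aa to H2-Ab1 was 0.449 to 0.456 in cKO-labelled TAM, 0.462 to 0.475 in control TAM and 0.518 to 0.539 in resident libraries. Both ratios therefore set resident macrophages apart from tumour macrophages by more than they set the tumour groups apart. Cd74 stood at 0.844 to 0.851 times the sum of the chains in cKO-labelled TAM and 0.846 to 0.866 in control TAM, which overlap, and at 0.889 to 0.915 in resident libraries.

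The balance between processing genes and chains shifted more. The ratio of Ctss to Cd74 was 0.144 to 0.151 in cKO-labelled TAM, 0.216 to 0.235 in control TAM and 0.0708 to 0.0781 in resident libraries. The summed H2-DM genes stood at 0.0449 to 0.0451 times the chains in cKO-labelled TAM, 0.0517 to 0.0544 in control TAM and 0.0346 to 0.0361 in resident libraries. Control TAM thus had the most Ctss and H2-DM per chain, with cKO-labelled TAM between it and the resident libraries. H2-DMb2 to H2-DMb1 was 0.0262 to 0.0290 in cKO-labelled TAM and 0.0279 to 0.0289 in control TAM, which overlap, against 0.0434 to 0.0453 in resident libraries. These ratios are given as a description, with no test.

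**Figure D4:**
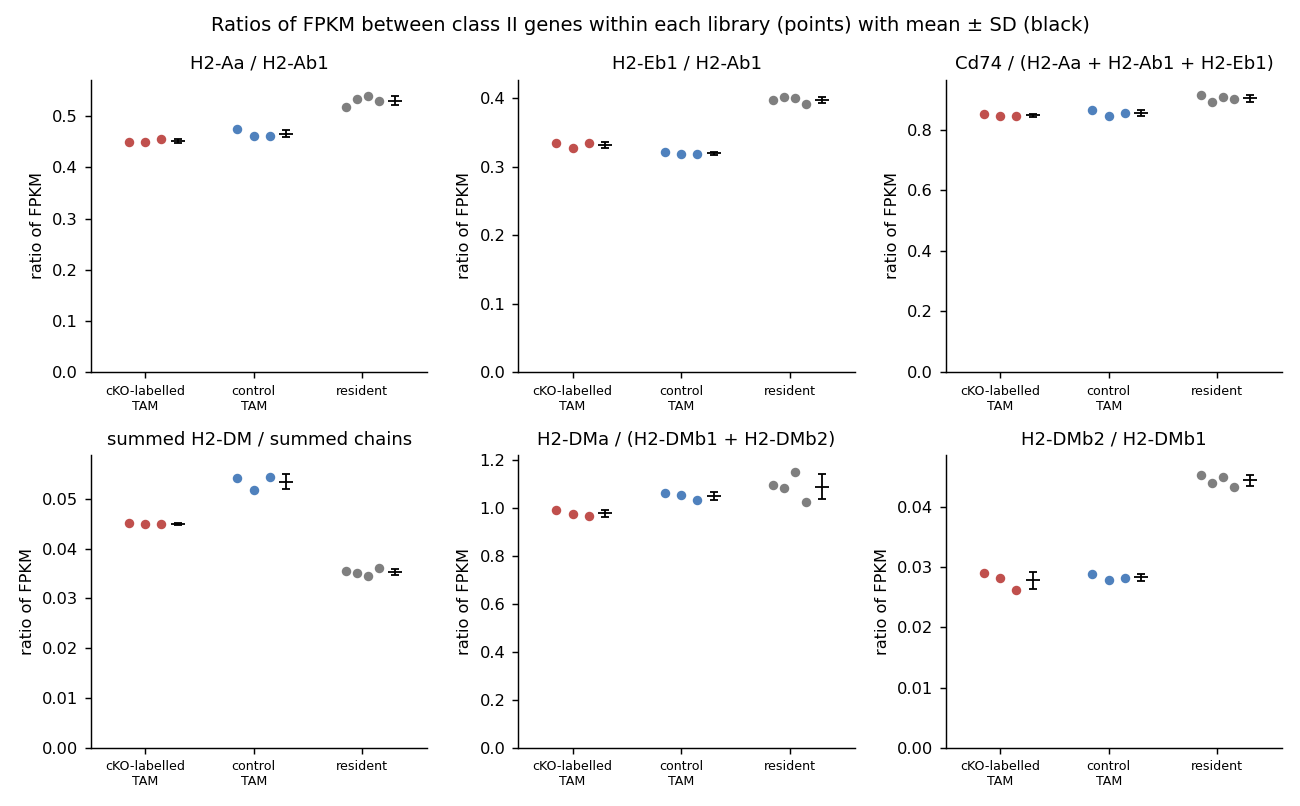
Ratios of FPKM between class II genes within each library, 1 panel per ratio on an axis from 0, with points for the 3 cKO-labelled TAM, 3 control TAM and 4 resident libraries and the mean ± SD of each group in black. The summed H2-DM genes per chain are highest in control TAM, and H2-DMb2 to H2-DMb1 sets the resident libraries above both tumour groups.

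Other genes of the pathway did not move as one. Of 26 listed symbols 21 were in the table and tested. In cKO-labelled against control TAM 6 were higher and 6 lower, beside 20.5% and 19.1% of all genes tested (median log2 change 0.06, against 0.01 over all genes). Among those higher was Rfxap, another RFX subunit, with 20.8, 19.0 and 18.7 FPKM in cKO-labelled TAM against 13.9, 13.2 and 13.6 in control TAM (log2 change 0.49 ± 0.06, limma adjusted p = 8.09e-06), the opposite direction from Rfx5. The third subunit gene, Rfxank, gave 0.15 ± 0.08 (limma adjusted p = 0.138). Cst3, which encodes the cathepsin inhibitor cystatin C, was higher too, at 1817, 1885 and 1757 FPKM in cKO-labelled TAM against 1220, 1253 and 1234 in control TAM (log2 change 0.56 ± 0.03, limma adjusted p = 6.58e-09). The others that rose were the cathepsins Ctsb and Ctsh, the legumain gene Lgmn, and Cd83, which shields class II from the ubiquitin ligase March1.

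The genes that fell in cKO-labelled against control TAM were Sppl2a, Ctsl, Ctsd, Ifi30, March8 and H2-Ob. Sppl2a, the protease that clears the last membrane stub of Cd74, read 12.97, 14.3 and 14.0 FPKM in cKO-labelled TAM against 21.2, 19.4 and 21.3 in control TAM (log2 change -0.55 ± 0.06, limma adjusted p = 7.66e-06). Ctsl and Ctsd, which encode cathepsins L and D, fell by 0.33 and 0.28 on the log2 scale, and Ifi30, the thiol reductase that opens disulfide bonds of antigens, by 0.33. March8, a ubiquitin ligase that can remove class II from the surface, fell by 0.42, whereas its relative March1 gave -0.07 (limma adjusted p = 0.371). H2-Ob, a chain of the H2-DM inhibitor H2-O, fell by 0.42, and its partner H2-Oa gave 0.06 (limma adjusted p = 0.710).

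Against resident macrophages the list was split as well. In control TAM 6 of 21 genes were higher and 12 lower, beside 39.0% and 38.1% of all genes (median -0.21, against 0.00 over all genes). For cKO-labelled TAM 7 were higher and 10 lower, beside 40.2% and 37.2% (median -0.12, against 0.02). Calls in both directions were thus common among all genes too. Ifi30 rose most in control TAM, with 404, 422 and 428 FPKM against 105, 101.15, 94.2 and 99.0 in resident libraries (log2 change 2.05 ± 0.04, limma adjusted p = 8.50e-17). Ctsl and Ctsd rose by 1.44 and 1.27 in control TAM, in the direction of Ctss. Cd83 fell most, at 62.0, 61.6 and 63.7 FPKM in control TAM against 256, 261, 269 and 255 in resident libraries (log2 change -2.04 ± 0.03, limma adjusted p = 9.75e-18). The 2 chains of H2-O parted, with H2-Oa higher in control TAM by 1.11 and H2-Ob lower by -0.63. H2-Oa was low, at 2.46, 3.05 and 3.25 FPKM in control TAM against 0.641, 1.20, 0.672 and 0.757 in resident libraries. At such levels the added 1 shrinks the log2 change. H2-Ob read 7.50, 7.80 and 7.88 FPKM in control TAM against 12.7, 11.3, 12.7 and 13.2 in resident libraries. Its promoter window also held the pair of boxes (25 bases apart), whereas that of H2-Oa did not.

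**Figure D5:**
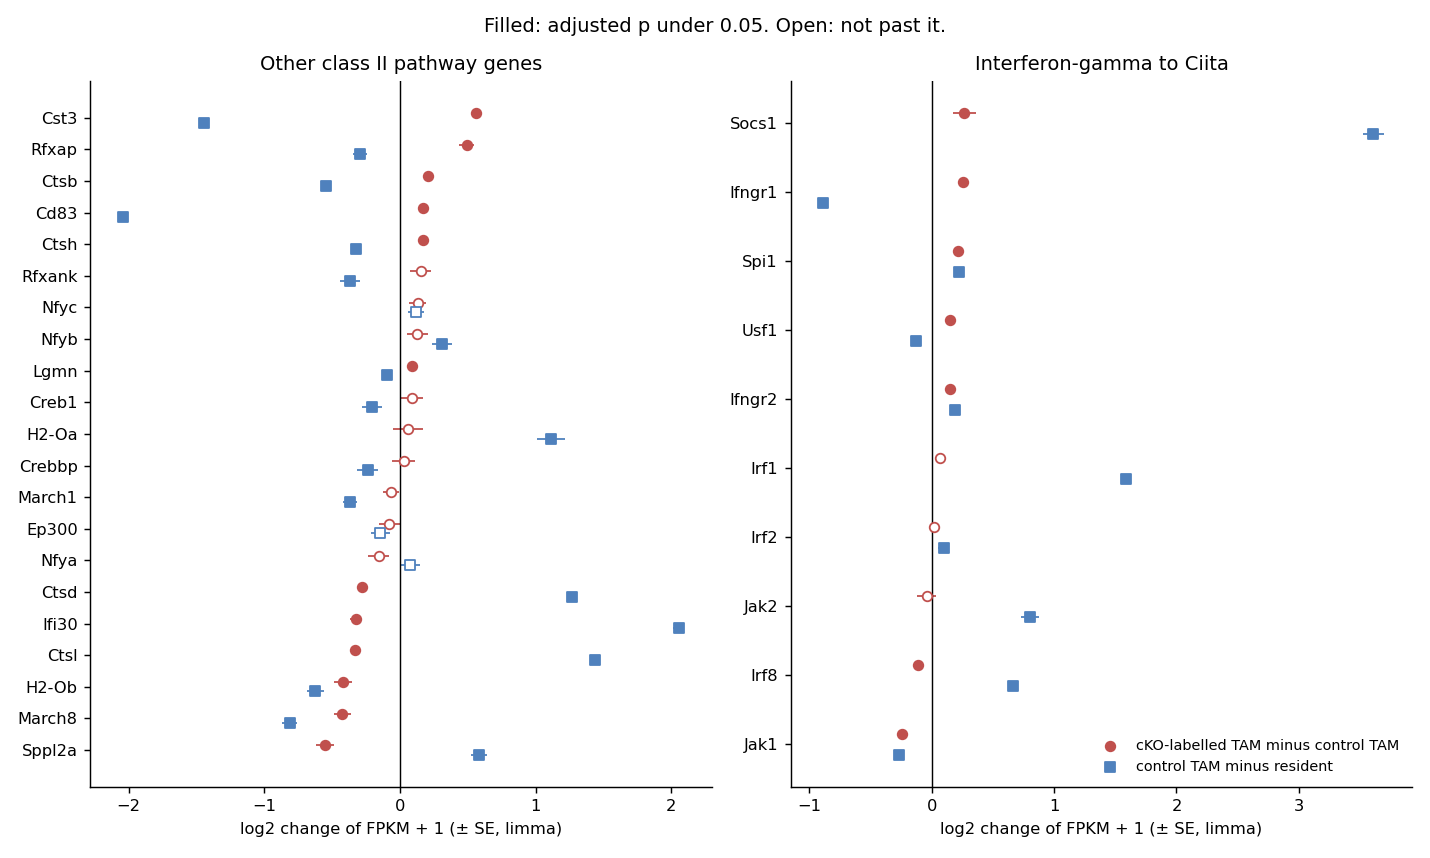
Log2 change of the 21 tested other class II pathway genes (left) and of 10 of the 11 genes from interferon-gamma to Ciita (right), in cKO-labelled minus control TAM and control TAM minus resident macrophages, on the log2(FPKM + 1) scale with bars of 1 standard error. Filled points passed an adjusted p of 0.05 and open points did not, and both panels hold genes on each side of 0 in both comparisons.

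Upstream of Ciita, 11 genes of the interferon-gamma route were all tested. In control TAM against resident macrophages 8 were higher and 3 lower, beside 39.0% and 38.1% of all genes (median 0.22, against 0.00 over all genes). Ciita itself was lower. Socs1, a feedback inhibitor that interferon-gamma induces, read 36.5, 40.5 and 37.1 FPKM in control TAM against 2.71, 2.42, 1.63 and 2.13 in resident libraries (log2 change 3.61 ± 0.09, limma adjusted p = 2.37e-15). Irf1, which acts on the Ciita promoter, rose by 1.59 ± 0.03, while the receptor gene Ifngr1 fell by 0.89 ± 0.03. In cKO-labelled against control TAM the changes were smaller. There 5 of 11 were higher and 3 lower, beside 20.5% and 19.1% of all genes (median 0.07, against 0.01 over all genes). Ifngr1 was higher there by 0.25 ± 0.03 (limma adjusted p = 3.39e-05), and Ifngr2, Spi1, Usf1 and Socs1 were the others called higher. Among the 3 lower were Jak1, at -0.24 ± 0.04 (limma adjusted p = 0.000110), and Irf8, at -0.12 ± 0.04 (0.0225). Irf1 gave 0.07 ± 0.03 (limma adjusted p = 0.0892). In cKO-labelled TAM against resident macrophages 8 were higher and 2 lower, beside 40.2% and 37.2% of all genes (median 0.43, against 0.02).

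The summed markers of other class II-bearing cells, like the chains, were lowest in control TAM, although single markers differed. Summed B and plasma cell markers (6 of 10 in the table) stood at 242 to 245 FPKM in cKO-labelled TAM, 87.4 to 95.9 in control TAM and 899 to 917 in resident libraries. Of the 6 tested, 4 were higher and 0 lower in cKO-labelled against control TAM, beside 20.5% and 19.1% of all genes. Most of the sum was Ighm, the immunoglobulin heavy chain, at 218, 223 and 219.8 FPKM in cKO-labelled TAM, 83.3, 87.2 and 78.8 in control TAM, and 843, 860.4, 856 and 855.5 in resident libraries. Cd79a, a part of the B cell receptor, stood at 1.12 ± 0.221 FPKM in cKO-labelled TAM, 0.544 ± 0.178 in control TAM and 1.15 ± 0.145 in resident libraries (SD, n = 3, 3 and 4). Cd79b stood higher, at 18.2 ± 0.440 FPKM in cKO-labelled TAM, 6.07 ± 0.755 in control TAM and 31.7 ± 0.650 in resident libraries. Jchain read 13.4 ± 0.737 FPKM in resident libraries, 0.144 ± 0.124 in cKO-labelled TAM and 0.0567 ± 0.0377 in control TAM. Its tumour groups gave no call (limma adjusted p = 0.350). By group mean 5 of the 6 genes were lowest in control TAM, while Cd22 was lowest in resident libraries, at 1.43 ± 0.352 FPKM in cKO-labelled TAM, 1.36 ± 0.205 in control TAM and 1.22 ± 0.220 in resident libraries. Ms4a1, Pax5 and Fcer2a are not analysed here.

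Summed dendritic cell markers (7 of 10 in the table) stood at 79.9 to 85.4 FPKM in cKO-labelled TAM, 34.9 to 41.4 in control TAM and 185 to 197 in resident libraries. Of the 6 tested, 3 were higher and 0 lower in cKO-labelled against control TAM, beside 20.5% and 19.1% of all genes. Among the 3 was the lectin gene Cd209a, at 43.7 ± 0.788 FPKM in cKO-labelled TAM against 17.7 ± 0.739 in control TAM (SD, n = 3 each). Batf3 stood at 33.6 ± 2.30 FPKM in cKO-labelled TAM, 15.2 ± 2.66 in control TAM and 43.0 ± 2.66 in resident libraries. Siglech read 22.2 ± 0.604 FPKM in resident libraries, 0.401 ± 0.0952 in cKO-labelled TAM and 0.231 ± 0.138 in control TAM. Its tumour groups gave no call (limma adjusted p = 0.0975). Zbtb46, a transcription factor gene of conventional dendritic cells, stood at 1.499 ± 0.134 FPKM in cKO-labelled TAM, 1.06 ± 0.324 in control TAM and 3.80 ± 0.0860 in resident libraries, and Flt3 was at most 1.14 FPKM in every library. By group mean 4 of the 7 genes were lowest in control TAM, Flt3 was lowest in cKO-labelled TAM, and Dpp4 and Itgae were lowest in resident libraries. Dpp4 stood at 2.43 ± 0.173 FPKM in cKO-labelled TAM, 2.33 ± 0.0530 in control TAM and 1.08 ± 0.0986 in resident libraries, and its change in control TAM against resident macrophages was positive (log2 change 0.68 ± 0.07, limma adjusted p = 3.48e-07). Xcr1, Clec9a and Ccr7 are not analysed here. The part that such cells have in the class II levels was not tested, and in bulk libraries fewer cells of a type and less RNA per cell cannot be told apart.

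Further lists moved between the same groups. Acinar enzymes summed to 456 to 474 FPKM in cKO-labelled TAM, 120 to 129 in control TAM and 35808 to 38093 in resident libraries. Neutrophil markers (5 of 6 in the table) summed to 1479 to 1645 FPKM in cKO-labelled TAM, 1233 to 1260 in control TAM and 32.2 to 34.1 in resident libraries. Most of that sum was Retnlg in the tumour groups, with means of 1420 FPKM in cKO-labelled TAM and 1166 in control TAM. In resident libraries it was mostly Csf3r, with a mean of 32.3 FPKM, against 32.9 in control TAM. Monocyte markers summed to 1015 to 1066 FPKM in cKO-labelled TAM, 1119 to 1130 in control TAM and 108 to 119 in resident libraries. Of the 12 macrophage markers 3 were higher and 6 lower in cKO-labelled against control TAM, beside 20.5% and 19.1% of all genes. The complement genes C1qa, C1qb and C1qc were the 3 that rose, and Lyz2, the gene that carries the Cre allele, fell to 11460 ± 203 FPKM in cKO-labelled TAM, against 19904 ± 85.1 in control TAM (SD, n = 3 each). The part of these differences in the class II values was not tested.

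The genes whose levels ran most like those of the class II genes were listed by Pearson correlation over the 10 libraries among 5044 candidates, as a description, since the libraries form only 3 groups. With the mean of the 3 chains and Cd74 these were Rab3il1 (r = 0.998), Lyz1 (0.995), Clec4b1 (0.995), Cd72 (0.995) and Clec10a (0.991). Clec10a, a C-type lectin gene, stood at 120 ± 3.02 FPKM in cKO-labelled TAM, 26.4 ± 1.81 in control TAM and 209 ± 2.62 in resident libraries (SD, n = 3, 3 and 4), the order of H2-Eb1 with wider steps. With Ciita they were Vps18 (0.986), Anxa6 (0.986), Brat1 (0.984), Ctsa (0.984) and Parp1 (0.983). With Ctss they were Litaf, Itga6, Id2, Bnip3 and Cav1 (each 0.999). The 3 sets of 5 genes have no gene in common, which adds nothing to the values above, since the 3 patterns order the groups differently.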

How the data were processed

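RNA-seq of 10 libraries of sorted mouse macrophages was used, from a single table of FPKM deposited by the authors, with 1 column per library matched by title. Per the labels' protocols, RNA was amplified with a SMART-Seq v4 kit before Nextera XT library preparation, which does not mark strand, so that overlapping transcripts cannot be told apart. Per the submitters' processing notes, the tools the authors used include STAR and edgeR, and the builds named are GRCm38 and mm10, with no versions or roles. How gene lengths were taken and libraries scaled is not given in the sources used here. Coordinates are from GENCODE M21 (GRCm38), 1-based.

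The 11127 genes that reached 1 FPKM in 3 or more libraries were tested, on log2(FPKM + 1), with limma 3.58.1 in R 4.3.3: 3 group means, empirical Bayes with an intensity trend, Benjamini-Hochberg adjustment over all genes tested, threshold 0.05. The procedure was tested on simulated data. The members and lists were chosen with earlier results of these data known. All 10 members were named, and from other lists any gene of the pathway and interferon-gamma lists could be. Whole reads were recovered from low values as multiples of 1 read, with 85.8% to 87.1% whole within 0.05 of a read per library, and used for depth and for 1 alternative, voom. The labels give mouse numbers, but p-values measure only the spread between these libraries. Libraries of the same group differed from each other by more than counting noise. Alternatives in pseudocount, filter, scaling, variance model, libraries and replicate block were tried, and promoter letters were searched with Python 3.11.15. A gene of the interferon-gamma list, counted but not drawn, is not reported here by name.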

Additional observations from a re-analysis of the deposited data

Results flagged for a closer look

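Among the 27 groups of 4 resident libraries checked, 3 had a library far from the other 3, measured as its gap to the nearest library over the range of the group and set against Dixon's 95% critical value, which chance passes in about 1 of 20 groups. For Cd74 the value was 0.936, from resident replicate 1 at 27108 FPKM. The ratio of Ctss to Cd74 gave 0.868, again from resident replicate 1, at 0.0708. Summed macrophage markers gave 0.891, from resident replicate 3 at 47893 FPKM.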

How the results depend on the processing

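Over all alternatives that kept every library, 364 of 387 member values kept their direction and side of the threshold, 8 lost the call, 10 gained one and 5 reversed; leaving out 1 library at a time, 289 of 300 were kept, 8 lost the call, 3 gained one and 0 reversed. The reversals were under quantile normalization for H2-Ab1 (0.64) and Cd74 (0.12) in control TAM against resident macrophages and for H2-Aa (0.22) and Cd74 (0.41) in cKO-labelled TAM against resident macrophages, and under rescaling to a common FPKM total for Ciita in control TAM against resident macrophages (0.050). Quantile normalization gives genes of the same rank the same value by construction, and these genes fill the top ranks; otherwise the cause was not tested. Members called stayed at 8 to 10, 9 to 10 and 8 to 10 for control TAM against resident, cKO-labelled against control TAM and cKO-labelled TAM against resident macrophages. The median member change in control TAM against resident macrophages was -0.36 at a pseudocount of 0.1, -0.35 at 0.5, -0.44 with a minimum of 5 FPKM, -0.14 rescaled to a common total, -0.23 rescaled outside the acinar list, -0.35 with median-of-ratios scaling, -0.047 with quantile normalization and -0.36 by voom on recovered reads, an alternative added after the data were seen, which called 8525, 4822 and 8796 genes against 8577, 4410 and 8612. In cKO-labelled against control TAM it was 0.30, 0.21, 0.21, 0.27 and 0.24 with the 5 FPKM minimum, the 2 rescalings, median-of-ratios and quantile normalization, and in cKO-labelled TAM against resident macrophages -0.14, -0.021, -0.12, -0.19 and, reversed, 0.27. Leaving out 1 library moved these medians over -0.35 to -0.30, 0.26 to 0.31 and -0.17 to -0.14. Same-numbered libraries did not pair: 1 of 9 pairs correlated above 0.1 (-0.0612 to 0.111). With the replicate number as a block, the median in control TAM against resident macrophages was -0.35, and 9, 10 and 9 members were called. Depth limits Rfx5 most, with 107 reads in 1 library.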
